A study of Mus musculus with 6 samples.

Results

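Voltage-gated calcium channels were examined in the cerebellum of aged mice that lack Tmem106b, through 10 subunit genes chosen by symbol, with their KO and WT counts in these same libraries already known, from the 43346 genes of the count table. They comprise 8 genes of the pore-forming alpha-1 subunit (Cacna1a, Cacna1b, Cacna1c, Cacna1d, Cacna1e, Cacna1g, Cacna1h and Cacna1i) and 2 genes of accessory subunits that are prominent in Purkinje cells (Cacnb4 and Cacna2d2). Each symbol matched 1 row, and all 10 passed the filter on low counts. The libraries came from 3 Tmem106b-/- mice (KO) and 3 Tmem106b+/+ mice (WT), all aged 15 months, with 1 female and 2 males per genotype, and replicate 1 of each genotype was the female. TMEM106B sits in the membranes of lysosomes and late endosomes, and the study concerns the loss of Purkinje cells and the motor problems of mice without it. RNA integrity numbers were 10 in all libraries. The making of the knockout allele is not described in the labels. The labels give as many mice as libraries, and do not say whether mice shared litters.

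Voltage-gated calcium channels open when the membrane is depolarised and let calcium enter the cell. The alpha-1 subunit forms the pore and sets the channel type, while beta and alpha-2-delta subunits bring the channel to the membrane and tune its gating. P/Q-type channels carry most of the calcium current of Purkinje cells and trigger transmitter release at many cerebellar synapses. T-type channels open near the resting potential and support burst firing. In mice, mutations of Cacna1a (tottering), Cacnb4 (lethargic) and Cacna2d2 (ducky) each cause ataxia.

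The libraries held 25245778 to 28584165 counts in KO and 29658618 to 31135185 in WT. Tmem106b measured 66.8 ± 3.64 CPM in KO and 245 ± 19.4 CPM in WT (SD, n = 3 each; CPM is counts per 1000000 of the scaled library total), a log2 fold change of -1.88 (SE 0.08). Its edgeR quasi-likelihood p, adjusted by the Benjamini-Hochberg method, was 1.37e-04. In KO replicate 1, the 2073 genes with the highest GC content (at least 55.4%) lay at a median of -0.29 on the log2 scale relative to their mean over libraries. The other libraries lay between -0.02 and 0.15. The 2073 with the lowest GC content (at most 44.5%) lay at 0.16 in KO replicate 1 and between -0.06 and -0.01 elsewhere. Each set was a 20% tail of a part of the 16934 genes tested. Fold changes of members that moved by 0.05 or more once such GC and length trends were removed from each library are given in both forms. The tissue is labelled as brain and described as cerebellum, and all 11 granule cell markers were detected, with summed levels of 6841 to 7128 CPM in KO and 6456 to 6914 CPM in WT. The 6 choroid plexus markers summed to 1605 to 5004 CPM in KO and 80 to 4655 CPM in WT, a spread within both genotypes.

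Among the 10 genes, Cacna1e was higher in KO and Cacna1g and Cacna2d2 were lower, while Cacna1a, which encodes the P/Q-type pore, overlapped between genotypes. In bulk tissue, fewer cells of a type and less RNA per cell cannot be told apart. The L-type pores Cacna1c and Cacna1d were also higher in KO, by smaller folds. Cacna1b, Cacna1h, Cacna1i and Cacnb4 overlapped between genotypes. Because of how the genes were chosen, their genotype differences are a description and carry no test of their own. In edgeR's quasi-likelihood fit of the whole table, with sex in the model, 1 of the 10 (Cacna1e, higher) lay under an adjusted p of 0.05. Of the 16934 genes tested, 0.283% did so in either direction and 0.136% were higher. The 3 KO values lay wholly above the 3 WT values in 3 members and wholly below them in 2, where over all genes tested the groups did not overlap in 14.1%, with KO above in 7.77% and below in 6.35%. The median log2 fold change was 0.07 over the 10 members and 0.00 over all genes tested. The members' median was 0.14 with GC and length trends removed, 0.11 without WT replicate 1 and 0.04 without KO replicate 3 or WT replicate 3.

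**Figure D1:**
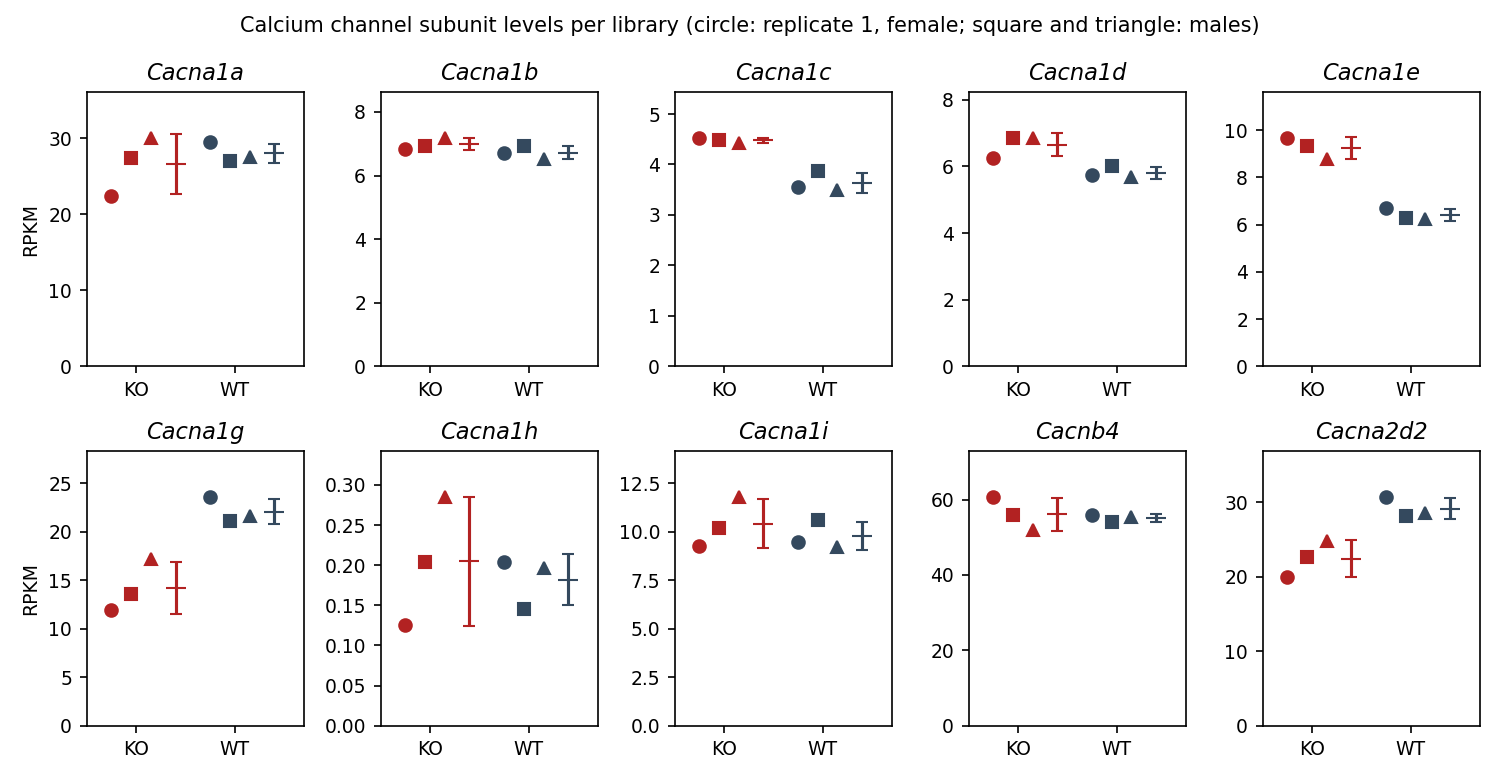
Level of each channel gene in RPKM (CPM per kilobase of the gene model, linear axis from 0) in the 3 KO libraries (red, left) and the 3 WT libraries (dark blue-grey, right), with the mean and SD beside the points. The KO points lie above all WT points for Cacna1c, Cacna1d and Cacna1e and below them for Cacna1g and Cacna2d2.

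Per kilobase of gene model, Cacnb4 was the most abundant of the 10, at 56.2 ± 4.42 RPKM in KO and 55.1 ± 0.915 RPKM in WT (SD, n = 3 each). In KO the order below it was Cacna1a (26.6), Cacna2d2 (22.4), Cacna1g (14.2), Cacna1i (10.4), Cacna1e (9.26), Cacna1b (6.99), Cacna1d (6.66), Cacna1c (4.48) and Cacna1h (0.205), all mean RPKM. In WT it was Cacna2d2 (29.1), Cacna1a (28.1), Cacna1g (22.1), Cacna1i (9.79), Cacna1b (6.72), Cacna1e (6.41), Cacna1d (5.82), Cacna1c (3.64) and Cacna1h (0.182). The order depends on gene model length, which was 24813 bases for Cacna1e, 21191 for Cacna1c and 9242 to 11418 for the other pores. Neighbours whose ranges over libraries overlapped were Cacna1a and Cacna2d2 in both genotypes. In KO these were also Cacna1i with Cacna1e and Cacna1b with Cacna1d, and in WT Cacna1b with Cacna1e.

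Cacna1a (mm10, chromosome 8, 84388440 to 84640246) encodes the P/Q-type pore, the main calcium channel of Purkinje cell bodies and of many presynaptic terminals. It measured 256, 312 and 344 CPM in KO replicates 1 to 3, against 336, 309.8 and 315 CPM in WT replicates 1 to 3. KO replicate 1 held the lowest value of the 6 and KO replicate 3 the highest, so the groups overlapped. The log2 fold change was -0.08 (SE 0.10), and it was -0.01 (SE 0.05) with GC and length trends removed. The GC content of its transcripts was 57.2%. Genes in that range were low in KO replicate 1 and high in KO replicate 3 and WT replicate 1 (medians of -0.29, 0.15 and 0.14). Over the 16 alternative analyses the fold change of Cacna1a took both signs, between -0.15 and 0.07.

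Cacna1b encodes the N-type pore, which supports transmitter release beside the P/Q type. It measured 68.1 to 71.5 CPM in KO and 64.9 to 68.9 CPM in WT, with a log2 fold change of 0.06 (SE 0.07), and 0.09 (SE 0.06) with GC and length trends removed. Its lowest KO library lay below its highest WT library.

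Cacna1e encodes the R-type pore, a channel of dendrites, spines and some terminals. The gene lies on chromosome 1 at 154390731 to 154884501 and overlaps no other gene of the table. It measured 240.2, 232 and 217 CPM in KO replicates 1 to 3, against 166, 156 and 155 CPM in WT replicates 1 to 3. The lowest KO library lay above the highest WT library, and the KO mean was 144% of the WT mean. The log2 fold change was 0.53 (SE 0.06). It stayed between 0.51 and 0.58 over the 16 alternatives. Without KO replicate 2, WT replicate 2 or WT replicate 3 it no longer lay under the threshold, and in these fits 16, 1 and 1 genes of the whole table did.

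L-type pores are encoded by Cacna1c and Cacna1d, whose channels open for long periods and couple activity to gene expression. Cacna1c is also the main calcium channel of vascular smooth muscle. Cacna1c, on chromosome 6 at 118587240 to 119196418, measured 95.9, 95.0 and 93.7 CPM in KO replicates 1 to 3, against 75.3, 82.0 and 73.9 CPM in WT replicates 1 to 3. All KO libraries lay above all WT libraries, at a log2 fold change of 0.30 (SE 0.07). Summed levels of 8 vascular smooth muscle and pericyte markers ran from 177 to 224 CPM in KO and from 182 to 239 CPM in WT, and none of the 8 was at 0. Of these markers 7 had a log2 fold change below 0 and 0 passed in edgeR (1 was lower at p under 0.05, unadjusted). Their median was -0.28, with -0.07 in the males alone and -0.51 without WT replicate 3. The part of these cells in the Cacna1c result was not tested.

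Cacna1d, on chromosome 14 at 30039949 to 30491156, encodes a channel that opens at lower voltages than that of Cacna1c. It measured 57.9, 63.3 and 63.4 CPM in KO replicates 1 to 3, against 53.2, 55.6 and 52.5 CPM in WT replicates 1 to 3. The groups did not overlap, and the log2 fold change was 0.19 (SE 0.07). The strand setting of the counting is not given in the sources used here. Both L-type genes overlap genes whose own counts came to over 10% of theirs. Cacna1c overlaps Dcp1b (counts at 16.2% of those of Cacna1c, log2 fold change 0.16, SE 0.11). Cacna1d overlaps Dcp1a (54.5%, 0.04, SE 0.08) and Chdh (11.5%, -0.24, SE 0.24). How reads in any stretch shared by these pairs were counted is not known.

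RefSeq windows of 250 bases before the start were matched for 7 of the 10 genes, some with several starts. For Cacna1c and Cacna1d, both higher in KO, the sequence before the start with the highest GC content is shown. Both of these starts lie inside the gene model, not at its outer end. The windows of Cacna1b and Cacna1i, whose groups overlapped, are set beside these sequences and adjoin the start of the gene model. All 4 were picked after the values were seen. The sequences are from RefSeq on GRCm38.p6, the assembly that mm10 names, and run 5′ to 3′ on the gene's strand. Bases annotated as exon in GENCODE were left out of the sequences shown, and capitals mark GC boxes (GGGCGG on either strand, overlapping copies included).
Cacna1c, chr6:119108574-119108745, minus strand: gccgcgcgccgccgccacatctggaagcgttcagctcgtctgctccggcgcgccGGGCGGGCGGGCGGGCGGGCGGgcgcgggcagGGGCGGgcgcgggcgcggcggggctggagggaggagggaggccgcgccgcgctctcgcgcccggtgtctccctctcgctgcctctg
Cacna1d, chr14:30353487-30353736, minus strand: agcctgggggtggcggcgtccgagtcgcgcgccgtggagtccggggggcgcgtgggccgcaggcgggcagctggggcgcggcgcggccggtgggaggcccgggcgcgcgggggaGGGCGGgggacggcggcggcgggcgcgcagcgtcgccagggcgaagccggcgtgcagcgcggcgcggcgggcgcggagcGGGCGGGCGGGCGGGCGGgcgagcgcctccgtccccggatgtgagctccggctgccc
Cacna1b, chr2:24763153-24763402, minus strand: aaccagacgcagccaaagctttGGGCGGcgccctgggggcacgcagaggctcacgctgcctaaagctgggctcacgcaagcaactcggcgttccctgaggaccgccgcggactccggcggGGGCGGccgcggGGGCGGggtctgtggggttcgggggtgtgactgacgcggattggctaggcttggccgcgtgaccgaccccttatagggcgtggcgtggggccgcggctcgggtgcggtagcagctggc
Cacna1i, chr15:80286988-80287237, plus strand: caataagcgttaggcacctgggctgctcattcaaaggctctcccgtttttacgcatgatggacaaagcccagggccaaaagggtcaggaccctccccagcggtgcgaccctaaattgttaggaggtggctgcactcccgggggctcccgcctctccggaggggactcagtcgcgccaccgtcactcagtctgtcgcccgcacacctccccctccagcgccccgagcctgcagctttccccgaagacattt
The Cacna1c stretch of 172 bases held 6 GC boxes and 32 CG dinucleotides. The Cacna1d window of 250 bases held 5 and 50, the Cacna1b window 3 and 29, and the Cacna1i window 0 and 16. In the windows not shown, exon bases were kept in the counts. GC boxes there numbered 0 for Cacna1e, which was higher in KO, and 1 for Cacna2d2, which was lower. All 250 bases of each of these windows were annotated as exon. At the starts of Cacnb4, whose groups overlapped, GC boxes numbered 0, 0 and 6, in windows with 0, 89 and 123 exon bases. The other starts of Cacna1c and Cacna1d held 0. That of Cacna1d, in a window that was all exon, held 3 TATA boxes (TATAAA on either strand). They were the only TATA boxes in the windows of these genes. GC boxes were thus both present and absent among the genes higher in KO, where the absence rests on the all-exon window of Cacna1e. Among the genes whose groups overlapped they were likewise both present and absent. Of 32851 windows of 250 bases before RefSeq starts, 32.7% held a GC box and 12.4% a TATA box, shares that are no comparison for windows picked for their GC content. A match of letters is a description, and which of the starts was used in these libraries cannot be read from gene counts.

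T-type pores are encoded by Cacna1g, Cacna1h and Cacna1i. Cacna1g is the T-type gene of Purkinje cells and of the deep cerebellar nuclei, where its current drives rebound bursts. The gene lies on chromosome 11 at 94408391 to 94474198 and overlaps no other gene of the table. It measured 120.2, 138 and 174 CPM in KO replicates 1 to 3, against 239, 214 and 219 CPM in WT replicates 1 to 3. All KO libraries lay below all WT libraries, with the KO female lowest and the WT female highest, and the KO mean was 64.3% of the WT mean. The log2 fold change was -0.64 (SE 0.13), and -0.56 (SE 0.07) with GC and length trends removed. Without the 2 females it was -0.48 (SE 0.10).

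Cacna1h measured 1.22, 1.99 and 2.79 CPM in KO replicates 1 to 3, against 2.00, 1.42 and 1.92 CPM in WT replicates 1 to 3. These values rest on 31 to 77 counts per library, the groups overlapped, and the log2 fold change was 0.14 (SE 0.30). It took both signs when 1 library was left out, at 0.52 without WT replicate 1 and 0.51 without KO replicate 1, against -0.11 without KO replicate 3 and -0.10 without WT replicate 2. With GC and length trends removed it was 0.23 (SE 0.24). Cacna1i measured 91.5 to 116 CPM in KO and 91.1 to 105 CPM in WT, at a log2 fold change of 0.09 (SE 0.09), so the groups overlapped here too. It was 0.19 (SE 0.08) with GC and length trends removed, and 0.01 without WT replicate 3.

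The beta-4 subunit gene Cacnb4 encodes a cytoplasmic partner that binds high-voltage-activated pores. It measured 544, 501 and 465 CPM in KO replicates 1 to 3, against 502, 485 and 496 CPM in WT replicates 1 to 3. The KO values spread to both sides of the WT values, at a log2 fold change of 0.02 (SE 0.07). With GC and length trends removed it was -0.05 (SE 0.05).

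Cacna2d2, on chromosome 9 at 107399612 to 107529343, encodes the extracellular alpha-2-delta-2 subunit, which accompanies the P/Q-type pore in Purkinje cells. It measured 158, 179.7 and 197 CPM in KO replicates 1 to 3, against 244, 223 and 226 CPM in WT replicates 1 to 3. All KO libraries lay below all WT libraries, and the KO mean was 77.1% of the WT mean. The log2 fold change was -0.38 (SE 0.09), and -0.33 (SE 0.05) with GC and length trends removed. Without the 2 females it was -0.26 (SE 0.06).

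Markers of Purkinje cells were lower in the same KO libraries. Summed over 18 markers that include none of the 10 channel genes, they reached 8734, 7663 and 8467 CPM in KO replicates 1 to 3, against 12456, 11532 and 12114 CPM in WT replicates 1 to 3. None of the 18 was at 0. In edgeR's quasi-likelihood test 8 of them fell and 0 rose, where 25 of the 16934 genes tested fell and 23 rose. The median log2 fold change of the 18 was -0.47, against 0.00 over all genes tested. The 10 microglial markers summed to 344 to 392 CPM in KO and 223 to 258 CPM in WT. In the same test 5 of these 10 rose and 0 fell. The part of these shifts in the channel results was not tested.

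**Figure D2:**
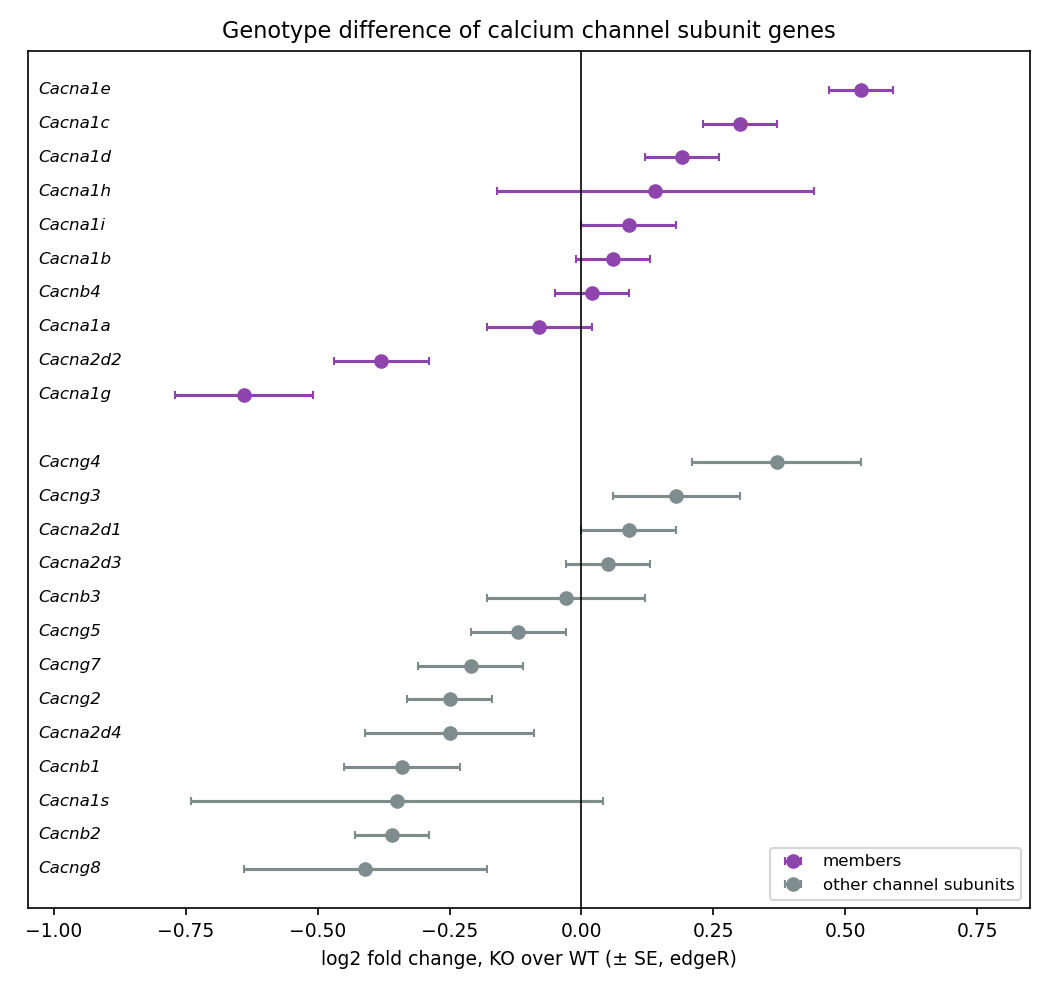
Log2 fold change of KO over WT with its SE (edgeR, sex in the model) for the 10 members (purple, upper block) and for the 13 other calcium channel subunit genes tested (grey, lower block), n = 3 libraries per genotype. Cacna1e stands highest at 0.53 and Cacna1g lowest at -0.64 among the members.

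Counted per kilobase, the mixture of pore transcripts differed between the genotypes (a description, as above). R-type Cacna1e made up 13.6%, 11.8% and 10.1% of the summed RPKM of the 8 pores in KO replicates 1 to 3, against 7.83%, 7.66% and 7.77% in WT replicates 1 to 3. The 3 T-type genes together made up 29.9%, 30.4% and 33.8% in KO replicates 1 to 3, against 38.9%, 38.8% and 38.6% in WT replicates 1 to 3. The WT libraries were close to each other in both shares, and every KO library lay outside their range. Of the T-type genes, Cacna1g had a lower mean share in KO (17.9%, against 26.7% in WT). Cacna1i (13.2% in KO, 11.8% in WT) and Cacna1h (0.255% in KO, 0.22% in WT) did not. The L-type share was 14.2 ± 1.09% in KO and 11.4 ± 0.577% in WT (SD, n = 3 each). The P/Q-type share was 33.7 ± 1.81% in KO and 33.9 ± 0.761% in WT, and the N-type share 8.91 ± 0.682% in KO and 8.13 ± 0.291% in WT. In RPKM, Cacna1e reached 0.817, 0.685 and 0.509 of the level of Cacna1g in KO replicates 1 to 3, against 0.284, 0.298 and 0.289 in WT replicates 1 to 3. This ratio and the shares depend on gene model length, at 24813 bases for Cacna1e and 10137 for Cacna1g. CPM is not divided by length and so favours the longer model of Cacna1e. By that measure Cacna1e stood above Cacna1g in every KO library (217 to 240.2 against 120.2 to 174). In WT it stood below Cacna1g (155 to 166 against 214 to 239). Per kilobase, Cacna1e stood below Cacna1g in every library of both genotypes. GC and length trends of each library were also divided out, an alternative added after seeing the data. The values stayed per kilobase and still depended on gene model length. The R-type share was then 11.8%, 11.6% and 11% in KO replicates 1 to 3, against 8.22%, 7.78% and 7.92% in WT replicates 1 to 3. The T-type share was then 32.5%, 30.5% and 32.5% in KO replicates 1 to 3, against 38.1%, 38.6% and 38.3% in WT replicates 1 to 3. The level of Cacna1e relative to Cacna1g became 0.668, 0.674 and 0.569 in KO replicates 1 to 3, against 0.303, 0.304 and 0.296 in WT replicates 1 to 3, so that KO replicate 1 no longer stood highest, and the genotypes still did not overlap. The shares add up to the whole, so a lower share of one type raises those of the others.

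**Figure D3:**
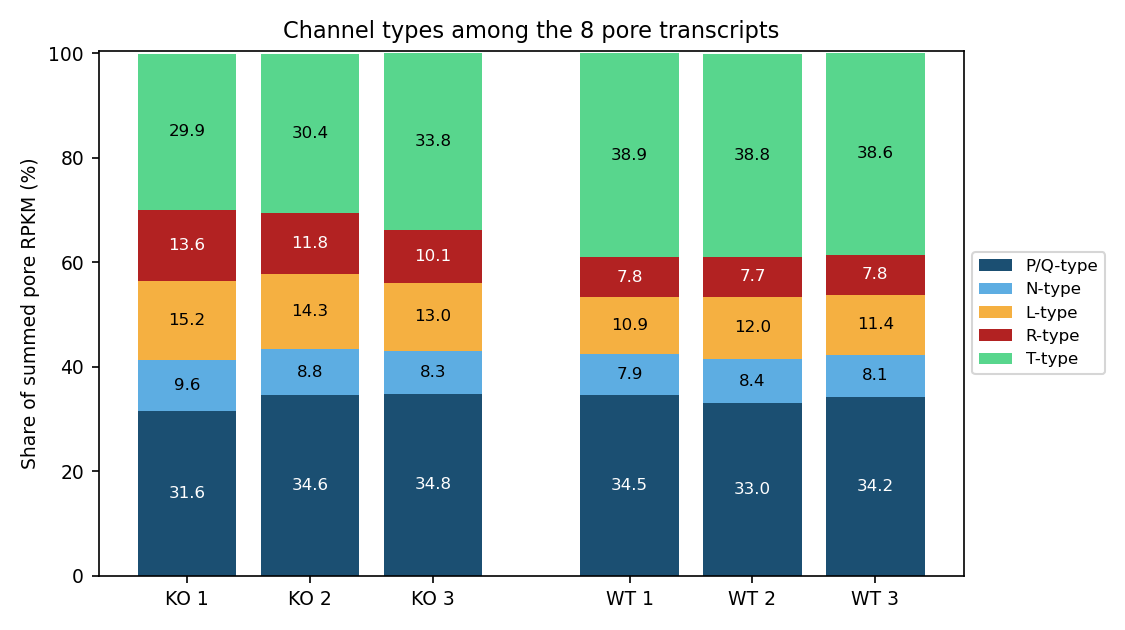
Share of each channel type in the summed RPKM of the 8 pore genes, 1 stacked bar per library (KO left, WT right, linear axis in percent). The R-type segment lies between 10.1% and 13.6% in KO and between 7.66% and 7.83% in WT, and the T-type segment between 29.9% and 33.8% in KO and between 38.6% and 38.9% in WT.

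The remaining calcium channel subunits number 16 genes, which complete the family. Cacna1f, Cacng1 and Cacng6 were too low to be tested. Of the 13 tested, 0 passed over the whole table in edgeR or in limma-voom. In edgeR 1 was higher and 3 were lower when p under 0.05 was taken unadjusted, where 4.71% of the whole table was higher and 4.25% lower by that rule. DESeq2 called 1, Cacnb2, against 1.37% of the whole table. The median log2 fold change was -0.21, and -0.05 in the 4 males alone. The gamma genes encode auxiliary proteins, several of which serve AMPA receptors in place of calcium channels. Per kilobase, Cacng7 stood highest at 84.6 RPKM in KO and 97.5 RPKM in WT (log2 fold change -0.21, SE 0.10, and -0.06 and -0.05 without KO or WT replicate 1). Cacng2, the stargazin gene, followed at 31.6 RPKM in KO and 37.4 RPKM in WT (-0.25, SE 0.08), then Cacng5 at 20.0 RPKM in KO and 21.8 RPKM in WT (-0.12, SE 0.09, and -0.05 without either female). The alpha-2-delta gene Cacna2d3 stood at 17.1 RPKM in KO and 16.5 RPKM in WT (0.05, SE 0.08). The 4 adjusted p-values in edgeR ran from 0.392 to 0.874. The beta-2 gene Cacnb2, named after its values were seen, measured 41.8 ± 1.27 CPM in KO and 53.7 ± 3.72 CPM in WT (SD, n = 3 each). Its log2 fold change was -0.36 (SE 0.07), with adjusted p-values of 0.125 in edgeR, 0.0125 in DESeq2 and 0.0174 in edgeR with GC and length trends removed. In contrast to Cacnb4, all 3 KO libraries of Cacnb2 lay below the WT libraries. The same held for 3 of the 13 genes tested here, Cacnb2 among them, and for 6.35% of all genes tested. The difference between Cacnb2 and Cacnb4 was not tested.

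Proteins that bind or regulate these channels were represented by a list of 27 symbols, of which 25 were in the table and 21 were tested. In edgeR 0 passed over the whole table, 4 were lower and 0 higher when p under 0.05 was taken unadjusted, limma-voom called 0 and DESeq2 called 1, Stac, beside the same shares of the whole table as above. The median log2 fold change was -0.07. Among the most abundant per kilobase were Calm2 (log2 fold change -0.15, SE 0.07) and Calm3 (-0.20, SE 0.13, and 0.00 without either female), which encode calmodulin, the calcium sensor on the channel's tail, and Crmp1 (-0.22, SE 0.10, and -0.11 and -0.10 without KO or WT replicate 1). In edgeR all 3 had adjusted p-values between 0.563 and 0.713. Stac encodes an adaptor of L-type channels and was named after its values were seen. It measured 10.2 ± 0.803 CPM in KO and 15.6 ± 1.37 CPM in WT (SD, n = 3 each), a log2 fold change of -0.62 (SE 0.12) with adjusted p-values of 0.112 in edgeR and 0.00484 in DESeq2.

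Calcium-activated potassium channels take their calcium from these pores and end each burst in Purkinje cells. Of 9 genes, Kcnmb3 and Kcnn4 were too low to be tested. In edgeR 0 of the 7 tested passed over the whole table, 1 was lower when p under 0.05 was taken unadjusted, limma-voom called 0 and DESeq2 called 1. The gene lower in edgeR and the one called in DESeq2 was Kcnma1, and the median log2 fold change was -0.15. Kcnma1, which encodes the large-conductance pore, measured 48.2 ± 2.20 CPM in KO and 69.5 ± 4.14 CPM in WT (SD, n = 3 each). Its log2 fold change was -0.53 (SE 0.08), at an adjusted p of 0.0504 in edgeR, next to the threshold, and it passed in 12 of 16 alternatives. The shares of the whole table given above apply to these counts too. Kcnma1 overlaps the lincRNA gene A830039N20Rik, whose own counts came to 166% of those of Kcnma1, at -0.25 (SE 0.08). How reads in any stretch shared by this pair were counted is not known. The small-conductance gene Kcnn2 (0.10, SE 0.13), its relative Kcnn1 (-0.24, SE 0.14, and -0.12 and -0.11 without KO or WT replicate 1) and the auxiliary gene Kcnmb4 (-0.15, SE 0.12) had adjusted p-values of 0.704 to 0.865 in edgeR.

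A contrast that played no part in the choice of the genes is that of the sexes. Between females and males, 0 of the 10 members passed in edgeR, DESeq2 or limma-voom, and 0 had an unadjusted edgeR p under 0.05, while 0.0354% of the whole table passed in edgeR and 6.68% had such a p. Their log2 fold changes, female over male, lay between -0.30 and 0.10, with adjusted p-values of 0.734 to 0.964 in edgeR. The contrast sets 2 females against 4 males.

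The genotype difference itself was compared between the sexes by an interaction term, with 1 female per genotype taken to vary like the males. In edgeR 0 of the 10 members passed, where 0% of the table did, and limma-voom called 0. Before adjustment 4 members had a p under 0.05, against 18.8% of the table. At 0.10 it was 1, Cacna1a, against 3.29% of the table. DESeq2 called 1, Cacna1a, where it called 3.18% of all genes, and edgeR without a filter called 2, Cacna1a and Cacna1g, where 5.98% passed. The interaction of Cacna1a was -0.47 (SE 0.11, edgeR adjusted p = 0.0974) and that of Cacna1g -0.52 (SE 0.18, edgeR adjusted p = 0.179). That of Cacna2d2 was -0.37 (SE 0.11, edgeR adjusted p = 0.137) and that of Cacna1h -1.22 (SE 0.52, edgeR adjusted p = 0.247), so that KO minus WT was lower in the females for all 4. With GC and length trends removed they were -0.09 (SE 0.10) for Cacna1a, -0.09 (SE 0.14) for Cacna1g, -0.11 (SE 0.11) for Cacna2d2 and -0.68 (SE 0.51) for Cacna1h, with edgeR adjusted p-values of 0.782 to 0.914. Each term rests on 1 female per genotype. GC-rich genes were low in KO replicate 1, the KO female (median -0.29), and high in WT replicate 1, the WT female (0.14). They were also high in KO replicate 3, a male (0.15). The cause of the interaction terms was not tested.

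Profiles over the 6 libraries were compared by the root mean square distance of centred log2 CPM among 10413 genes that averaged 10 CPM or more. Nearest to Cacna1a, the most abundant pore, were Ppp6r1 (0.0136), Prrt2 (0.0161) and a gene model listed as DHX30 (0.0167), against a median distance of 0.172. Nearest to Cacnb4, the most abundant accessory subunit, were Atp2b1 (0.00469), Cdc123 (0.00838) and Slc39a14 (0.0133), against a median of 0.120. The points share library depth and the GC trends described above, and no test was made of these distances.

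The number of members under the threshold is given here beside the share of all genes that each analysis called. It was 3 in DESeq2 (Cacna1e, Cacna1g and Cacna2d2), where 1.37% of genes passed, and 3 with no filter, where 0.751% passed. It was 4 with GC and length trends removed (1.8% of genes, Cacna1c added) and 3 with the same in males only (1.06%). Without KO replicate 3 it was 3 (0.906%), and without KO replicate 2, WT replicate 2 or WT replicate 3 it was 0 (0.0929%, 0.00582% and 0.00581%). In the remaining fits it was 1, Cacna1e. These used RLE size factors (0.443% of genes), a mean of 1 CPM or more (0.514%), limma-voom (0.254%), newer edgeR (0.331%), no sex term (0.36%), males only (0.651%), no KO replicate 1 (0.679%) and no WT replicate 1 (0.54%).

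**Figure D4:**
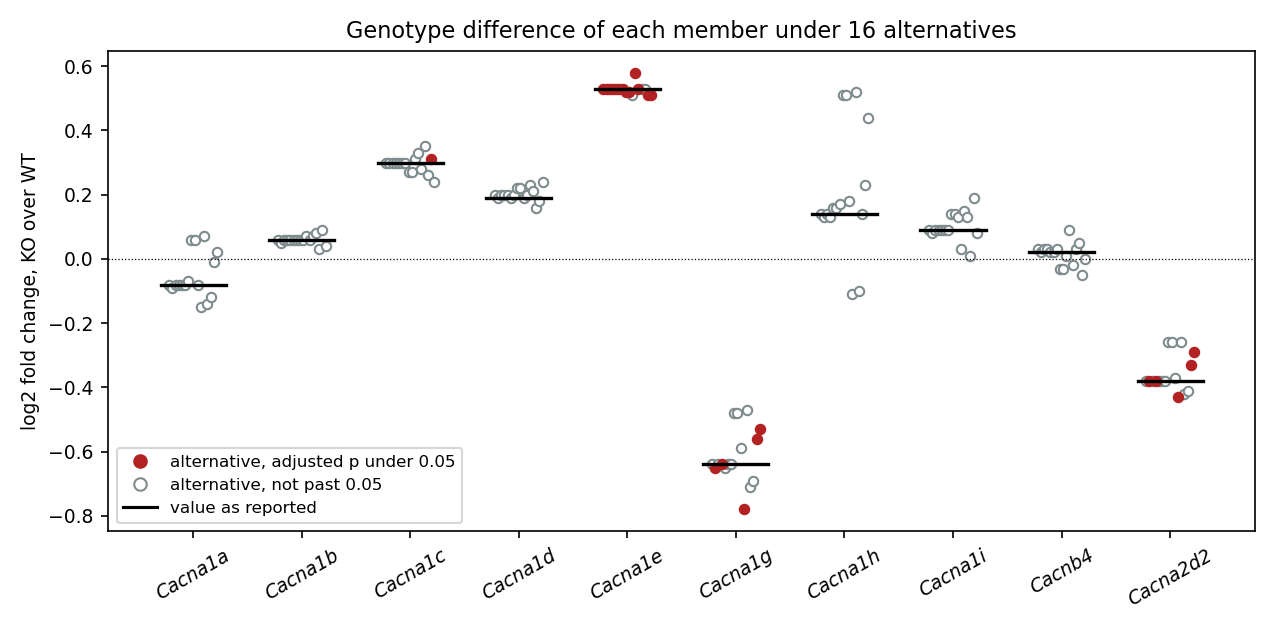
Log2 fold change of KO over WT of each member as reported (black line) and under 16 alternatives (points, filled red where the adjusted p over all genes was under 0.05). Cacna1e lies between 0.51 and 0.58 and Cacna1g between -0.78 and -0.47, while the points of Cacna1a, Cacna1h and Cacnb4 take both signs.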

How the data were processed

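Raw read counts per gene, 1 column per mouse, were deposited by the authors in 1 table with gene coordinates and lengths. The submitters' processing notes name STAR and the mm10 build. Sources used here do not give the counter, its strand setting or the gene annotation.

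The members and all lists were chosen with earlier results of these data known. Named genes are the members, Tmem106b, and in each further list those past the threshold and the 4 most abundant per kilobase, of which 1 gene is not reported here. Cacnb2 and Stac were named outside this rule, after their values were seen. Counts were fitted in R 4.3.3 with edgeR 4.0.16 (filterByExpr with a minimum count of 10 and total of 15, leaving 16934 genes, TMM scaling, sex and genotype in the model, robust legacy glmQLFit, 3 residual degrees of freedom). Benjamini-Hochberg adjustment ran over the whole table, and calls used 0.05. The SE is the absolute log2 fold change over the square root of F. CPM and RPKM use TMM-scaled totals and the length column. The spread between mice was a biological coefficient of variation of 11.2%. Replicates differed by more than sampling noise, at 7.45 to 31.1 chi-square units per degree of freedom. The genotype fits in edgeR, DESeq2 and limma-voom were tested on simulated counts that held no GC trend, sex difference or interaction. The other steps were not tested in this way.

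Alternatives were RLE factors, other filters, DESeq2 1.42.0, limma-voom (limma 3.58.1), newer edgeR quasi-likelihood, the model without sex, the males alone, omission of each library in turn and calls at 0.10. Removal of GC and length trends (loess, span 0.5, GC known for 99.0% of tested genes from GENCODE transcripts) was added after seeing the data. Replicate numbers follow deposit order and pair no samples.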

Additional observations from a re-analysis of the deposited data

How the results depend on the processing

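No paired analysis was possible because replicate numbers carry no pairing in the labels; sex was a term in the model instead. A code in the sample titles is shared by KO replicates 1 and 2 and WT replicate 1 and differs in each of the other mice. The labels do not say what it means, and as a block beside sex it leaves no residual degrees of freedom. The number of members under an adjusted p of 0.05 was 1 (Cacna1e) as reported, 3 with no filter and in DESeq2 (Cacna1e, Cacna1g and Cacna2d2), and 0 to 3 when each library was left out. It was 0 without KO replicate 2, WT replicate 2 or WT replicate 3, and 3 without KO replicate 3. With GC and length trends removed, chosen after seeing the data, it was 4, Cacna1c being the fourth, and 3 with the same in males only. The other channel subunits numbered 0 as reported, 1 in DESeq2 and 1 with GC and length trends removed. The channel regulators numbered 0 as reported and 1 with no filter, in DESeq2, with GC and length trends removed and with the same in males only, and 0 to 1 over left-out libraries, with 1 without KO replicate 3. Calcium-activated potassium channel genes numbered 0 as reported and 1 with no filter, RLE size factors, a filter at 1 CPM on average, DESeq2, newer edgeR, no sex term, males only, a threshold of 0.10 and both fits with GC and length trends removed, and 0 to 1 over left-out libraries. Fits in males only and without either female rest on the same males. The interaction of genotype and sex called 0 members as reported, 2 with no filter, 1 in DESeq2 and 1 at 0.10.

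Cacna1e, Cacna1c, Cacna1d, Cacna1b and Cacna1i kept a positive fold change and Cacna1g and Cacna2d2 a negative one in all 16 alternatives. Signs turned only near 0 for named genes outside the members. Cacna2d3 was at -0.01 in males only and without either female, and at -0.01 to 0.11 over left-out libraries. Kcnmb4 was at 0.01 in those fits and with GC and length trends removed in males, and at -0.26 to 0.01 over left-out libraries. Kcnn2 was at -0.01 in males only and with those trends removed in males, and at 0.00 (without KO replicate 1) to 0.26 over left-out libraries. Calm3 was at -0.3 to 0.00 (without WT replicate 1) over left-out libraries. The causes were not tested.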
